A study of Mus musculus with 6 samples.

Results

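The actin cortex of the intestinal epithelium was followed through 8 genes, chosen by symbol from the 32285 features of the deposited matrices. They are ezrin (Ezr) with its paralogs moesin (Msn) and radixin (Rdx), the heavy chains of non-muscle myosin II (Myh9, Myh10 and Myh14), the brush border myosin Myo1a, and villin (Vil1). All 8 had a row in each of the 6 matrices. The data are single-cell RNA sequencing of mouse small intestinal organoids collected on day 3, from mice of 10 weeks. WT organoids were grown with DMSO (-EIPA, replicates 1 and 2) or with 5 µM EIPA, an inhibitor of Na+/H+ exchange (+EIPA, replicates 1 and 2). Other WT organoids were infected with a lentiviral vector, selected with puromycin and established as single clones. The vector held doxycycline (Dox)-inducible Cas9-EGFP and a guide to the first exon of its target gene. These organoids were grown without Dox (-Dox, 1 library) or with 2 µg/mL Dox (+Dox, 1 library). Both CRISPR libraries therefore carry the vector and the guide, but the sources used here do not say whether they came from the same clone. Live cells were sorted for every library, and for +Dox the sort also required GFP. The question is how these genes were expressed in stem, absorptive and secretory cells, and whether their levels differed with EIPA or Dox.

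Ezrin, moesin and radixin are ERM proteins, which tether the plasma membrane to cortical actin once phosphorylated. Ezrin is the main ERM protein of the intestinal epithelium, where it organizes the apical membrane of enterocytes. Non-muscle myosin II is the motor that contracts the cortex and the junctional belt, and its 3 heavy chains, called IIA (Myh9), IIB (Myh10) and IIC (Myh14), are encoded by separate genes. Villin bundles and severs actin inside microvilli, and Myo1a links that bundle to the microvillar membrane.

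On the GRCm38 build, with GENCODE M21 gene models, the members lie on 8 different chromosomes. Ezr is at chr17:6738041-6782784 (minus strand), Msn at chrX:96096042-96168552 (plus), Rdx at chr9:52047173-52088735 (plus) and Vil1 at chr1:74409376-74435559 (plus). Among the myosins, Myh9 is at chr15:77760587-77842175 (minus), Myh10 at chr11:68691559-68816632 (plus), Myh14 at chr7:44605803-44670843 (minus) and Myo1a at chr10:127705170-127720940 (plus). The promoters of the 5 members that were well counted are shown because 4 of them (Vil1, Ezr, Myo1a and Myh14) were higher together in enterocyte-like cells, while Myh9 was lower there. Each runs from 250 bases before to 50 bases after the RefSeq start of the gene, on build GRCm38.p6, and is written 5′ to 3′ on the strand of the gene. Capitals mark a CArG box, the motif bound by serum response factor, or a GC box (GGGCGG, either strand), the motif bound by SP1.
Vil1 (chr1:74409134-74409433, + strand): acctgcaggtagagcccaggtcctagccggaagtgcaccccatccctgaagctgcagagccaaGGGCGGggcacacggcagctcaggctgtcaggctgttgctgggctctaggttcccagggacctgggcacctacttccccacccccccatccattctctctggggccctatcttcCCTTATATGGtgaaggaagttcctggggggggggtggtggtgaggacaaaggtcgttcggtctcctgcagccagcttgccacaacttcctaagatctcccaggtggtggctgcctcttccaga
Ezr (chr17:6782731-6783030, - strand): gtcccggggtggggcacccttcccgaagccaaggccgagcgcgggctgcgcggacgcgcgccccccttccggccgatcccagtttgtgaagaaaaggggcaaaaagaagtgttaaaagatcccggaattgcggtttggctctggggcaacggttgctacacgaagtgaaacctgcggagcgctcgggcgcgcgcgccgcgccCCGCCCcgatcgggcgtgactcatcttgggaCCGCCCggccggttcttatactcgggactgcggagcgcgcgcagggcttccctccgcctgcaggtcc
Myo1a (chr10:127705006-127705305, + strand): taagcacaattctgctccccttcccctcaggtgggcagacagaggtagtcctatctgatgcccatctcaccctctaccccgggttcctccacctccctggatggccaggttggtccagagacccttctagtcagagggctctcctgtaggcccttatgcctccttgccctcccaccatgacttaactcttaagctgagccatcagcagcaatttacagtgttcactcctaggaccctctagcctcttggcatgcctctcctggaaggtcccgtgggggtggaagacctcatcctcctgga
Myh14 (chr7:44670794-44671093, - strand): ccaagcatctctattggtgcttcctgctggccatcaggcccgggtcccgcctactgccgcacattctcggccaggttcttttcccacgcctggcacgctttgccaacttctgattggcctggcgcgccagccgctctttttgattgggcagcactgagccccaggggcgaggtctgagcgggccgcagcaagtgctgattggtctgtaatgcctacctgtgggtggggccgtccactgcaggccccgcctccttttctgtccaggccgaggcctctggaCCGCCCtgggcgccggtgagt
Myh9 (chr15:77842126-77842425, - strand): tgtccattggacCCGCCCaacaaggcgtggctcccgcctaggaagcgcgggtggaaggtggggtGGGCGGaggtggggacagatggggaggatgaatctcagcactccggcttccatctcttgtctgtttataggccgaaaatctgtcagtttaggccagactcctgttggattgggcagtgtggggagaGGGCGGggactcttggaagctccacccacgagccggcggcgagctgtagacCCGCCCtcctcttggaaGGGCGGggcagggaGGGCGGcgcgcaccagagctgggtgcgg

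The Vil1 promoter held a CArG box, CCTTATATGG, 73 bases before the start, and none of the other 7 members had one in its window. Over 32851 RefSeq promoters of this length, 1.63% held a CArG box on either strand. The GC box was in 35.7% of them, with 1 match in Vil1, 1 in Myh14, 2 in Ezr, 6 in Myh9 and 0 in Myo1a. TATAAA, held by 13.6% of promoters, matched among the members in Myh9, and TTTATG, a core of the sites bound by CDX factors and held by 11.9%, matched in Msn. CAAAGTCCA, a site bound by HNF4 factors and held by 0.475% of promoters, matched in no member. These matches describe the letters of the windows and were tied to no binding data.

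Of 123544 barcodes, 87954 passed the limits of at least 1000 genes and under 20% mitochondrial counts, between 12083 and 18211 per library. Libraries held 176388405 to 249350351 counts of unique molecular identifiers (UMIs, 1 per captured transcript end), with medians of 11477.5 to 17020 per kept cell, the highest in +Dox. Levels are given as CPM, the UMIs of a gene per 1000000 UMIs of the same cells. Because 1 UMI stands for 1 transcript end, CPM is not corrected for gene length. Pairs of libraries shared 33 to 78 cell barcodes, at most 0.563% of the smaller library. Cells fell into 23 clusters, of which 18 could be named from markers as 6 classes, and 19035 cells stayed unnamed. The members and the listed partner genes were kept out of the genes used to cluster. In the joint clustering the ISC-like class was thin with EIPA. It held 824 and 2115 cells in -EIPA replicates 1 and 2, but 136 and 86 in +EIPA. With each library clustered on its own it held 1159 and 3034 in -EIPA, and 1464 and 1229 in +EIPA. Its size thus depended on the clustering, and 56.7% of neighbours in the joint clustering came from a cell's own library. Clusters 10 (ISC-like) and 16 (proliferating) came to 98.1% and 98.7% from +Dox, and 49.0% of ISC-like cluster 5 came from -Dox, so class and library were partly inseparable there. Of 14 markers of immune, endothelial, fibroblast and muscle cells, summed levels were 4.69 to 17.1 CPM per library, and 3.37 to 7.16 CPM without Vim, whose UMIs lay mainly in EEC-like cells of the WT libraries. After Vim, Lyve1 had the most UMIs of these markers (5135). Pecam1 had 421 UMIs and Cdh5 had 0.

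Of the 8 members, 5 were well counted. Over the kept cells, Ezr had 209566 UMIs, Vil1 184818, Myh9 138531, Myo1a 76236 and Myh14 68387. Msn had 12 UMIs in 9 cells and Rdx 12 UMIs in 12 cells, so both were at the detection limit. Msn was seen in the 4 WT libraries, with 8 of its UMIs in +EIPA replicate 2, and Rdx in 3 WT libraries. Neither had a UMI in the CRISPR libraries, where a count of 0 allows up to 0.0129 CPM in -Dox and 0.0127 CPM in +Dox (3 UMIs, for counting error only). Ezr therefore made up a mean of 99.99% of the ERM UMIs over all cells, and its lowest share in any class and library was 99.6%, in tuft-like cells of +EIPA replicate 1.

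Myh10 was rare, with 222 UMIs in 208 cells, and it was concentrated in enteroendocrine (EEC-like) cells, which held 131 of those UMIs. Its EEC-like level was 4.42 and 3.55 CPM in -EIPA, 3.79 and 4.08 CPM in +EIPA, 0.910 CPM in -Dox and 2.17 CPM in +Dox. The mean of 3.15 ± 1.34 CPM (SD, n = 6 libraries) compares with 0.348 ± 0.306 CPM in tuft-like cells, the next class, and the ranges of the libraries did not overlap. The -Dox value rests on 3 UMIs and the +Dox value on 17. In the other 4 classes Myh10 averaged 0.0475 to 0.185 CPM.

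Ezr was spread across every class and was highest in enterocyte-like cells. There it measured 175.5 and 146.5 CPM in -EIPA, 218.1 and 200.5 CPM in +EIPA, 192.8 CPM in -Dox and 253.7 CPM in +Dox. The class mean was 198 ± 36.6 CPM (SD, n = 6), followed by EEC-like (156 ± 6.53), tuft-like (142 ± 11.6), proliferating (140 ± 7.98), ISC-like (132 ± 9.04) and Goblet/Paneth-like cells (126 ± 13.2). Every neighbouring pair in this order overlapped between libraries. Within a library, enterocyte-like cells had more Ezr than ISC-like cells in 6 of 6 libraries, by 0.57 ± 0.24 on the log2 scale (SD), ranging from 0.14 in -EIPA replicate 2 to 0.85 in +Dox. Goblet/Paneth-like cells stood at -0.07 ± 0.11 against ISC-like cells, with 2 of 6 libraries above 0. These levels are a description with no test, because cells were grouped on the same libraries.

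Vil1 was also highest in enterocyte-like cells, by a wider margin. Enterocyte-like cells had 241.6 and 199.6 CPM in -EIPA, 298.8 and 295.2 CPM in +EIPA, 233.8 CPM in -Dox and 335.3 CPM in +Dox. ISC-like cells had 111.1, 103.9, 123.1, 94.7, 93.4 and 103.1 CPM in the same libraries, all below the lowest enterocyte-like value. The class means were 267 ± 50.5 in enterocyte-like, 175 ± 24.6 in tuft-like, 151 ± 12.7 in EEC-like, 114 ± 8.62 in Goblet/Paneth-like, 105 ± 11.0 in ISC-like and 95.2 ± 5.20 CPM in proliferating cells. Among neighbours in this order, only the step from EEC-like to Goblet/Paneth-like cells had no overlap between libraries. Within libraries the enterocyte-like level exceeded the ISC-like level by 1.33 ± 0.29 on the log2 scale, in 6 of 6 libraries.

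Myo1a was the member with the largest difference between enterocyte-like and ISC-like cells. It measured 144.1, 102.3, 157.0, 134.1, 127.8 and 176.3 CPM in enterocyte-like cells of -EIPA 1 and 2, +EIPA 1 and 2, -Dox and +Dox. The corresponding ISC-like values were 35.1, 22.3, 33.9, 31.9, 24.4 and 30.02 CPM. The within-library difference was 2.24 ± 0.20 on the log2 scale, a mean of 4.74-fold. The enterocyte-like range lay wholly above that of the next class, tuft-like cells (59.1 ± 11.7 CPM). Goblet/Paneth-like cells were also above ISC-like cells in 6 of 6 libraries, by 0.70 ± 0.13, although their means of 47.8 ± 6.31 and 29.6 ± 5.19 CPM were far below the enterocyte-like mean of 140 ± 25.4 CPM.

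The main non-muscle myosin II heavy chains had opposite orders between stem and absorptive cells. Myh9 was lowest in enterocyte-like cells, at 80.8, 74.3, 64.0, 59.2, 80.1 and 65.2 CPM in the order of libraries above. In ISC-like cells it measured 152.9, 140.1, 159.9, 124.9, 131.6 and 122.9 CPM. The enterocyte-like range lay below that of every other class, and the difference from ISC-like cells was -0.98 ± 0.20 on the log2 scale, negative in 6 of 6 libraries. Myh9 was highest in EEC-like cells (155 ± 14.4 CPM), with overlap between libraries for the steps down through tuft-like, ISC-like, proliferating and Goblet/Paneth-like cells.

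Myh14 had the opposite order. It measured 105.2, 66.9, 116.1, 102.0, 99.8 and 136.3 CPM in enterocyte-like cells and 27.2, 28.4, 38.8, 50.8, 26.4 and 36.7 CPM in ISC-like cells. The difference of 1.598 ± 0.40 on the log2 scale was positive in 6 of 6 libraries. Tuft-like cells came next at 63.2 ± 11.6 CPM, and the remaining classes averaged 31.9 to 40.8 CPM.

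Put together as shares of the 3 heavy chains, Myh14 made up 19.98 ± 5.13% of myosin II UMIs in ISC-like cells, 20.9 ± 1.75% in proliferating and 24.1 ± 2.99% in Goblet/Paneth-like cells. EEC-like cells had 20.3 ± 2.82% and tuft-like cells 31.1 ± 3.97%. In enterocyte-like cells it made up 59.1 ± 7.41%, with no library below 47.4%. Myh9 supplied 40.8% of the UMIs there, against 79.9% in ISC-like cells. Myh10 reached 1.55 ± 0.599% in EEC-like cells and averaged at most 0.167% in the other classes. Since a transcript of each gene gives 1 UMI, the shares were read as a shift between classes and not as protein.

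**Figure D1:**
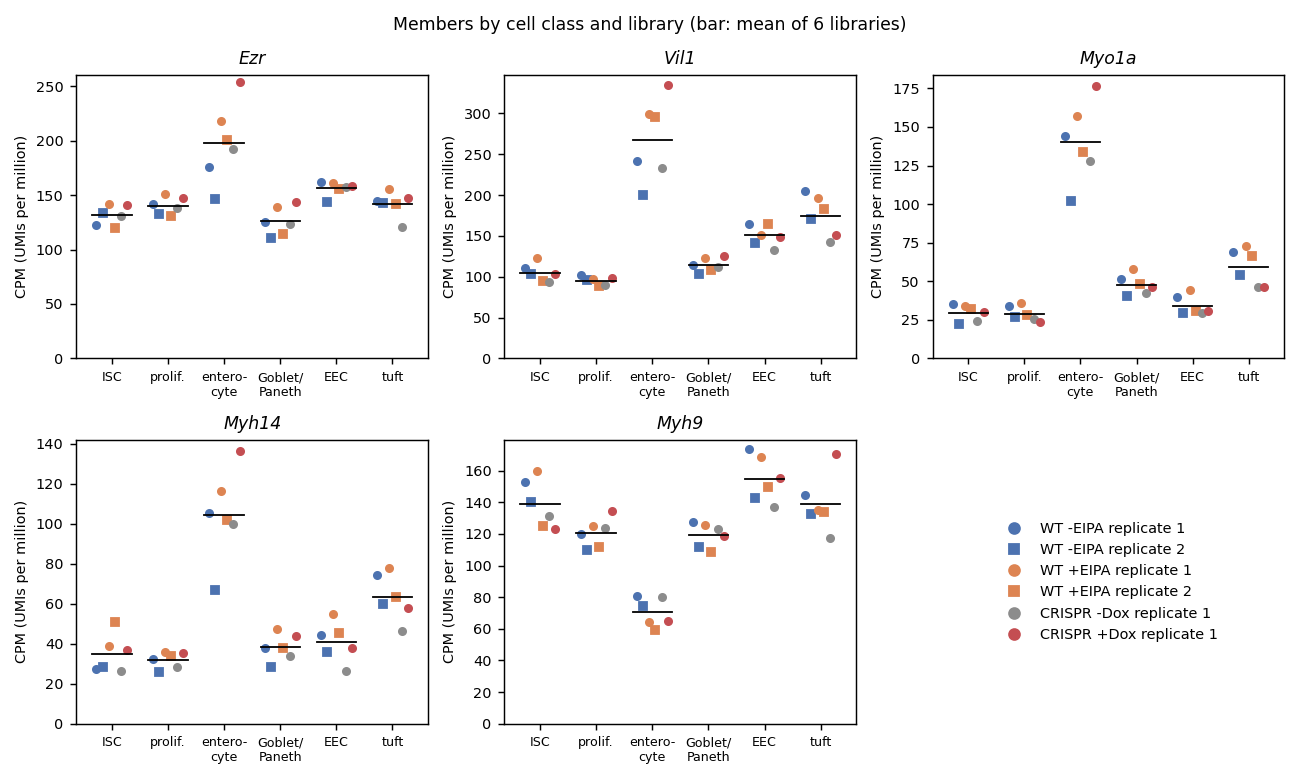
Level of the 5 well-counted members in each of the 6 cell classes, in CPM. Each point is 1 library (circles replicate 1, squares replicate 2) and each bar the mean of 6; enterocyte-like cells are highest for Ezr, Vil1, Myo1a and Myh14, and lowest for Myh9 (70.6 ± 9.05 CPM).

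**Figure D2:**
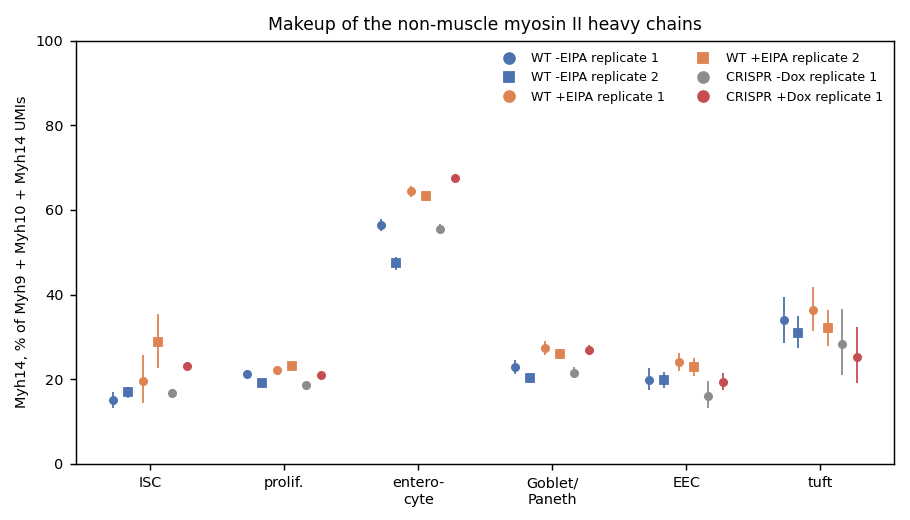
Myh14 as a percentage of all Myh9, Myh10 and Myh14 UMIs, by class and library, with 95% exact binomial intervals that cover counting error only. The 6 enterocyte-like points lie between 47.4% and 67.6%, above those of every other class, whose highest is 36.4% in tuft-like cells.

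Likeness to other genes was measured as Pearson's r of log2(CPM + 1) over 36 points (6 classes in 6 libraries), among 7216 genes whose mean over libraries reached 20 CPM in at least 1 class. The points share libraries, so r is a description. Ezr was most like Ap2a2 (r = 0.889), Vti1b (0.879) and Tle5 (0.879). Myh9 was most like Nedd4 (0.955), Limk2 (0.9498) and Atrx (0.947). Vil1 was most like Ddhd2 (0.956), Optn (0.952) and Misp (0.948). Myo1a was most like Stap2 (0.939), Cideb (0.938) and Nat8 (0.929), and Myh14 was most like Clic5 (0.951), Myo1a (0.922) and Cideb (0.919). Clic5 belongs to the proteins known to join ezrin in microvilli, and Misp is an actin bundler of microvillar rootlets. Between members, r was 0.917 for Myh14 and Vil1, 0.887 for Myo1a and Vil1, and 0.815 for Ezr and Vil1. Myh9 ran against the rest, at -0.747 with Myo1a and -0.543 with Ezr. Msn, Rdx and Myh10 were under the level needed.

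Within classes, the members varied between clusters. Among the 4 enterocyte-like clusters, cluster 7 (led by Reg3a, Apoc3 and Apoa1) had the lowest Myh9 of all 23 clusters, 47.5 ± 7.52 CPM. Enterocyte-like cluster 8 (led by Gm26917, Apoa4 and Apob), by contrast, had 155 ± 19.0 CPM of Myh9, close to ISC-like cluster 5 (153 ± 14.3). Cluster 8 also had the highest Vil1 (393 ± 164), Myh14 (227 ± 72.5) and Myo1a (199 ± 64.5 CPM). Its cells had a median of 0.325 of their libraries' median UMIs, so the depth of these cells moved with those levels, and its part in them was not tested. In barcodes below the limits on cells, Vil1 measured 128 to 406 CPM per library, against 118 to 183 CPM in kept cells.

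Ezr was highest not in a named class but in unnamed cluster 14, which was led by Sprr1a, Tm4sf4, Lgals3, Clu, S100a6, Anxa1 and Ly6a. Its Ezr level was 785.4 and 377.5 CPM in -EIPA, 748.9 and 601.0 CPM in +EIPA, 463.2 CPM in -Dox and 614.6 CPM in +Dox, a mean of 598 ± 158 CPM (SD, n = 6). Each of these values was above the highest enterocyte-like class value of 253.7 CPM. By cluster the ranges overlapped, since enterocyte-like cluster 8 had 156.2 to 404.2 CPM over libraries. Cluster 14 held 107 and 190 cells (0.849% and 1.04%) in -EIPA and 398 and 720 cells (3.02% and 5.05%) in +EIPA. It held 93 cells (0.528%) in -Dox and 381 cells (3.15%) in +Dox. The libraries with EIPA or Dox thus had the larger shares, but +Dox alone was sorted for GFP. The paper made no comparison of cell shares for the CRISPR libraries, since that sort may have biased which cells were collected. Shares across clusters were not tested, since clusters were built from the same libraries. Next came Goblet/Paneth-like cluster 20 (led by Zg16, Clca1 and Fcgbp), with 379 ± 133 CPM of Ezr, while Goblet/Paneth-like cluster 4, led by Defa30, Defa24 and Defa17, had 110 ± 15.5 CPM.

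**Figure D3:**
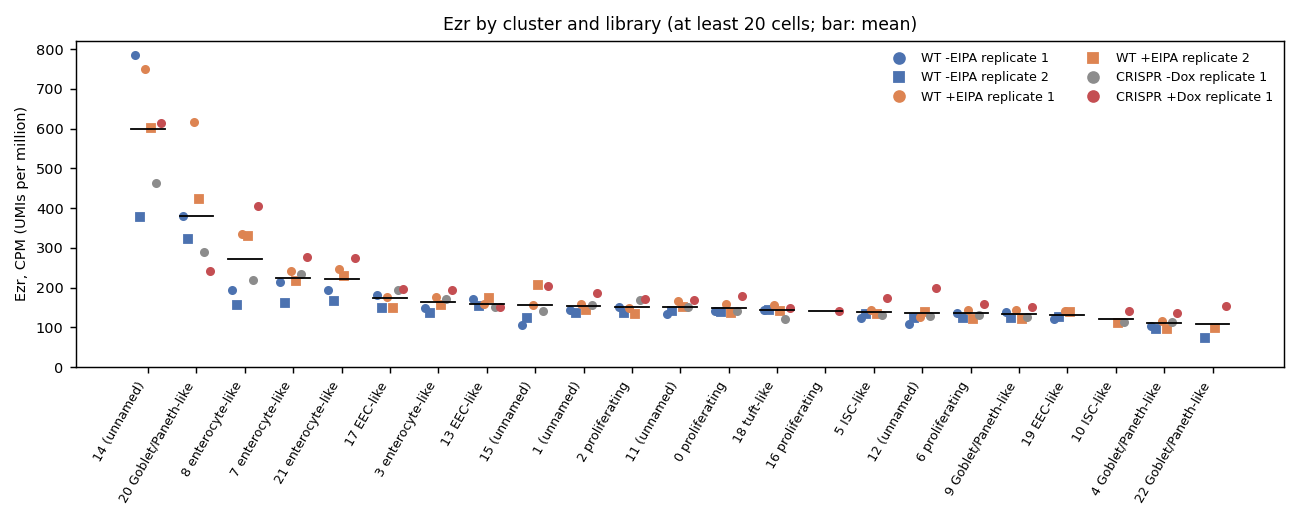
Ezr level in each cluster, in CPM, for libraries with at least 20 cells in it, ordered by the mean (bar). Points are libraries; the 6 points of unnamed cluster 14 lie between 377.5 and 785.4 CPM, and Goblet/Paneth-like cluster 20 follows at 242.0 to 616.3 CPM.

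With EIPA, mean levels of Ezr, Vil1, Myh14 and Myo1a were higher in enterocyte-like cells, but none of the members passed the threshold of the reported fit. That fit leaves out the pairing of replicates by number. With the replicate number as a block, 4 of the 5 tested members passed, beside 16.2% of all genes. Vil1 was 241.6 and 199.6 CPM in -EIPA against 298.8 and 295.2 CPM in +EIPA, and Ezr was 175.5 and 146.5 against 218.1 and 200.5 CPM. For both genes the groups did not overlap. Here and below this describes 2 against 2 libraries, and the share of all genes without overlap was not counted. The log2 fold changes were 0.59 ± 0.16 for Vil1 (SE, n = 2 libraries per group, adjusted p = 0.127) and 0.54 ± 0.15 for Ezr (adjusted p = 0.141) in edgeR's quasi-likelihood test. Myh14 (0.50 ± 0.22, adjusted p = 0.278) and Myo1a (0.40 ± 0.20, adjusted p = 0.312) overlapped between groups, since -EIPA replicate 1 lay above +EIPA replicate 2. Over 12 alternatives the log2 fold change ran from 0.21 to 0.89 for Myh14 and from 0.17 to 0.69 for Myo1a. Myh9 was lower without overlap, 80.8 and 74.3 against 64.0 and 59.2 CPM, with a log2 fold change of -0.17 ± 0.13 (adjusted p = 0.524). Scaling by library size in place of TMM factors put the median of all genes at -0.19 in these cells (-0.02 with TMM), and the 5 members kept their signs, with Vil1 at 0.43, Ezr at 0.38 and Myh9 at -0.33.

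In the reported fit, without the block, 0 of 5 tested members passed, beside 0.167% of all genes. Of the members, 2 (Ezr and Vil1) were among the 2464 genes (19.6%) with p under 0.05 before adjustment. DESeq2 called Vil1 and Ezr, beside 5.16% of genes. The study's source data give replicates of the same number as 1 experiment, and with that number as a block 4 of the 5 passed, beside 16.2% of all genes: Vil1 (adjusted p = 0.00433), Ezr (0.00614), Myh14 (0.0116) and Myo1a (0.0298). The block leaves 1 residual degree of freedom, so these values rest on the spread shared across genes. Without -EIPA replicate 1, 4 members passed in the fit without a block, beside 7.7% of genes. Over 12 alternatives, the adjusted p of Vil1 ranged from 0.00433 to 0.542 and passed in 4.

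The makeup of the class moved with EIPA as well. Cluster 7 supplied 21.1% and 23.8% of enterocyte-like cells in -EIPA and 29.6% and 38.8% in +EIPA. Cluster 8, whose cells were shallow, supplied 35.3% and 25.9% in -EIPA and 23.8% and 20.6% in +EIPA. Within cluster 7 alone, a comparison added after the clusters were seen, the log2 fold change was 0.45 ± 0.18 for Vil1 (adjusted p = 0.391) and 0.41 ± 0.19 for Ezr (adjusted p = 0.428). Within cluster 3 alone it was 0.30 ± 0.14 for Vil1 (adjusted p = 0.732) and 0.32 ± 0.14 for Ezr (adjusted p = 0.672). In these 2 clusters each value was smaller than over the whole class.

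Cluster 8 went the other way. Within it, Vil1 was 259.7 and 197.6 CPM in -EIPA and 483.7 and 539.2 CPM in +EIPA, and Ezr was 193.0 and 156.2 against 333.7 and 330.6 CPM. Neither gene overlapped between the groups. The log2 fold changes in this cluster alone, also fitted after the data had been seen, were 1.33 ± 0.22 for Vil1 (adjusted p = 0.00236), 1.10 ± 0.20 for Ezr (0.00406), 1.07 ± 0.24 for Myh14 (0.0121) and 1.00 ± 0.22 for Myo1a (0.00999). All 4 were larger than over the class, and Myh9 stood at -0.04 ± 0.18. So 4 of 5 members passed there, beside 17.9% of genes, in the cells whose low depth is given above, and the part of that depth in the result was not tested.

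Over all cells kept, Ezr, Vil1, Myh14 and Myo1a again had higher means with EIPA. Ezr was 151.0 and 136.6 CPM in -EIPA and 185.8 and 175.2 CPM in +EIPA. Vil1 was 138.0 and 117.9 against 163.0 and 147.6 CPM, and Myh14 was 50.8 and 35.4 against 65.4 and 55.7 CPM. These 3 did not overlap between groups, whereas Myo1a did (61.2 and 42.2 against 74.5 and 58.4 CPM). How many of all genes did not overlap was not counted, so this is a description only. The log2 fold changes were 0.41 ± 0.08 for Ezr (adjusted p = 0.263), 0.36 ± 0.10 for Vil1 (adjusted p = 0.357), 0.57 ± 0.19 for Myh14 (adjusted p = 0.431) and 0.44 ± 0.21 for Myo1a (adjusted p = 0.584). Myh9 differed by less than the spread between replicates (113.1 and 108.0 against 111.4 and 101.2 CPM; 0.03 ± 0.07, -0.06 by library size). Myh10 was at 0.35 ± 0.33 (adjusted p = 0.816).

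The test called 0 of 6 tested members and 0% of 15890 genes over all cells, while an unadjusted p under 0.05 was reached by 3 members (Ezr, Myh14 and Vil1) and 1601 genes. By DESeq2, 614 genes (3.86%) passed, Ezr among them (adjusted p = 0.00194). With the replicate block 4 members passed, beside 5.28% of genes: Ezr (adjusted p = 0.0292), Myo1a (0.0377), Myh14 (0.0377) and Vil1 (0.0378). In these sums a change in the share of a cell class and a change of level within cells cannot be told apart. Cluster 14, the cluster with the highest mean Ezr, held 0.849% and 1.04% of cells in -EIPA and 3.02% and 5.05% in +EIPA. Its part in the Ezr values over all cells was not tested.

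In ISC-like cells 4 of the 5 tested members differed by less than or about their SE, with log2 fold changes of 0.10 ± 0.16 for Ezr, 0.09 ± 0.17 for Vil1, 0.03 ± 0.17 for Myh9 and 0.29 ± 0.28 for Myo1a. Myh9 turned to -0.04 by library size. Myh14 was 27.2 and 28.4 CPM in -EIPA and 38.8 and 50.8 CPM in +EIPA, without overlap, a log2 fold change of 0.77 ± 0.20 (adjusted p = 0.662, or 0.0551 with the block). Over 12 alternatives that log2 fold change ran from 0.18 to 0.96, the lowest being 0.18 ± 0.12 at a clustering resolution of 1.6. No member was called, beside 0.0288% of genes, or 0.96% with the block, and Myh14 was among the 544 genes (5.22%) with p under 0.05 before adjustment. The 136 and 86 cells behind the +EIPA values limit this comparison. In +EIPA replicate 2, 22 of the 86 cells lay in cluster 10 and gave 55.8% of the UMIs of the class, with Myh9 at 91.0 CPM beside 167.6 CPM in its cells of cluster 5. In each -EIPA library cluster 10 gave at most 0.182%. That resolution gave 474 and 2604 ISC-like cells in +EIPA, and there Vil1 stood at -0.17 ± 0.11 and Myh9 at -0.32 ± 0.14.

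In Goblet/Paneth-like cells, Myh14 was 37.9 and 28.2 CPM in -EIPA and 47.1 and 38.0 CPM in +EIPA, a log2 fold change of 0.46 ± 0.15 (adjusted p = 0.542). Myo1a was 51.2 and 40.6 against 58.0 and 48.1 CPM (0.30 ± 0.13, adjusted p = 0.779). Ezr (0.20 ± 0.11), Vil1 (0.18 ± 0.10) and Myh9 (0.06 ± 0.10, -0.03 by library size) differed less. No member was called, beside 0.246% of genes, and Myh14 was among 823 genes (6.53%) with p under 0.05 before adjustment. With the block, Myh14 (adjusted p = 0.000549) and Myo1a (0.0392) passed, beside 4.99% of genes.

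Among the rarer secretory cells, 0 of 6 tested members were called in EEC-like cells, beside 0.0975% of genes (1.82% with the block, again 0 members). Myh14 had the largest log2 fold change of the 6 there, 0.38 ± 0.15, and was the 1 member at an unadjusted p under 0.05 (357 genes in all). In tuft-like cells 0 of 5 were called, beside 0.0205% of genes (0.575% with the block, 0 members), and their log2 fold changes ran from 0.03 ± 0.15 for Myh9 to 0.26 ± 0.19 for Myo1a, where an unadjusted p under 0.05 was reached by 0 members and 339 genes. No member passed by DESeq2 in either class. Proliferating cells (4299 and 4791 in -EIPA, 5036 and 5590 in +EIPA) were not tested for EIPA.

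**Figure D4:**
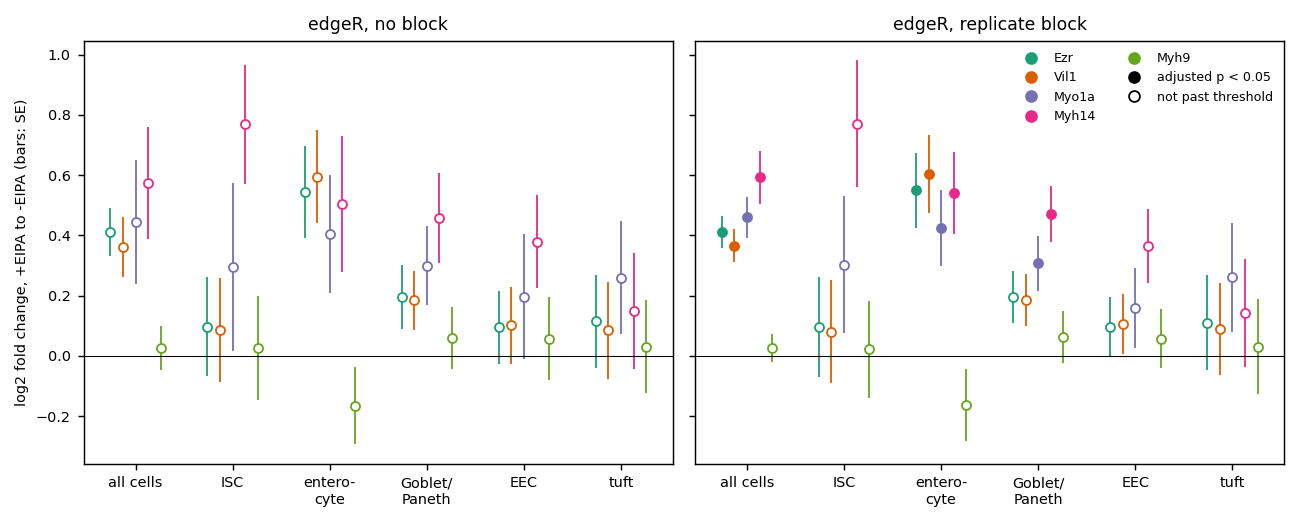
Log2 fold change of the 5 well-counted members from -EIPA to +EIPA in all cells and in each class except proliferating cells, which were not fitted. Bars are SE (n = 2 libraries per group), without the replicate block (left) and with it (right). Filled points passed an adjusted p of 0.05; without the block none did, and with it 4 members did over all cells, 4 in enterocyte-like and 2 in Goblet/Paneth-like cells.

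P-values here measure the spread between 2 libraries per group, and the sources used here do not say whether the libraries of a group came from separate mice. Whether the EIPA effect differed between classes was tested as a term of its own. From ISC-like to enterocyte-like cells, the effect grew by 0.59 ± 0.15 for Vil1 (adjusted p = 0.1004) and 0.53 ± 0.15 for Ezr (adjusted p = 0.165) on the log2 scale. None of 5 members was called, beside 0.178% of genes, and Ezr and Vil1 were among 1587 genes (11.8%) with p under 0.05 before adjustment. DESeq2 called Vil1 (adjusted p = 0.0464), beside 0.773% of genes, and over 11 alternatives the difference for Vil1 ran from 0.43 to 0.77. From enterocyte-like to Goblet/Paneth-like cells the effect was smaller by 0.41 ± 0.12 for Vil1 (adjusted p = 0.0732) and by 0.34 ± 0.13 for Ezr (adjusted p = 0.149), and for Myh9 it was 0.23 ± 0.11 higher (adjusted p = 0.250). Here too 0 members were called, beside 2.82% of genes, and Ezr, Myh9 and Vil1 were among 2666 genes (19.8%) with p under 0.05 before adjustment. DESeq2 called Vil1 (adjusted p = 0.0314), beside 2.07% of genes, and over 11 alternatives the difference for Vil1 ran from -0.58 to -0.31. Between Goblet/Paneth-like and ISC-like cells, edgeR called 0 members and 0% of 13457 genes, with 0 members and 738 genes at an unadjusted p under 0.05, and DESeq2 called 1 gene, which was no member.

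Dox gave 1 library per group, so its values have no replicate check and no test. The guide cuts in the first exon of its target, which 3′ UMIs do not read, so these counts check nothing about the edit. Over all cells, Myh14 was 47.1 CPM in -Dox and 71.7 CPM in +Dox, a ratio of 1.52 (95% exact interval 1.49 to 1.56, counting error only). Myo1a (52.7 to 76.4 CPM, ratio 1.45), Vil1 (128.2 to 182.6 CPM, 1.42) and Ezr (150.8 to 194.0 CPM, 1.29) were also higher in +Dox. Myh9 was 112.4 and 111.0 CPM, a ratio of 0.988 (0.971 to 1.00). Myh10 had a ratio of 3.19, resting on 8 UMIs in -Dox and 26 in +Dox, with an interval of 1.40 to 8.16. Myh14 and Myh10 were past 1.5-fold, beside 14.4% of genes with at least 100 UMIs in both libraries together, a depth that Myh10 did not reach.

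In enterocyte-like cells the +Dox to -Dox ratios were 1.43 for Vil1 (233.8 to 335.3 CPM), 1.38 for Myo1a (127.8 to 176.3), 1.37 for Myh14 (99.8 to 136.3) and 1.32 for Ezr (192.8 to 253.7). Myh9 was lower, 80.1 and 65.2 CPM, a ratio of 0.814 (0.778 to 0.851). Of the members, 0 passed 1.5-fold, beside 20.3% of genes. With TMM factors in place of library size, Vil1 and Myo1a were past it (0.65 and 0.59 on the log2 scale). Cluster 7 held 23.2% of the class in -Dox and 54.6% in +Dox, with +Dox alone sorted for GFP, which limits a comparison of shares. Within cluster 7 the ratio was 1.27 for Vil1 and 1.19 for Ezr, and within cluster 3 it was 1.23 for Vil1 and 1.14 for Ezr, each below the value for the class. Myh14 was at 1.41 within cluster 7, above its class ratio, and at 1.27 within cluster 3. Within cluster 8, which held 26.3% of the class in -Dox and 13.6% in +Dox, Vil1 had a ratio of 2.03 and Ezr of 1.85. Cluster 8 held 4947627 UMIs in 1028 cells in -Dox and 4410654 in 459 cells in +Dox. Depth per cell thus differed between the libraries, and its part in these ratios was not tested.

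In ISC-like cells the ratios were 1.39 for Myh14 (26.4 to 36.7 CPM), 1.23 for Myo1a, 1.10 for Vil1, 1.08 for Ezr and 0.934 for Myh9, with 0 members past 1.5-fold beside 6.37% of genes. The -Dox and +Dox cells of this class lay mostly in different clusters (5 and 10). When each library was clustered on its own, Myo1a turned to -0.18 and Myh9 to 0.10 on the log2 scale. In Goblet/Paneth-like cells the ratios were 1.29 for Myh14 (33.7 to 43.7 CPM), 1.16 for Ezr, 1.12 for Vil1, 1.10 for Myo1a and 0.966 for Myh9, with 0 past 1.5-fold beside 6.08% of genes. Myh9 turned to 0.08 with TMM factors, and with called doublets removed Myo1a turned to -0.07 and Vil1 to -0.05 (all log2).

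**Figure D5:**
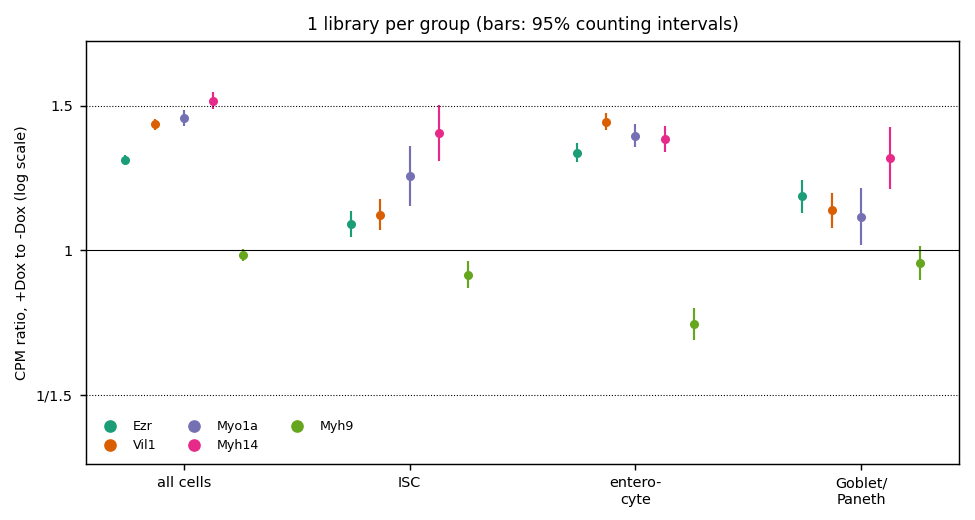
Ratio of the CPM in +Dox to that in -Dox for the 5 well-counted members, on a log axis, with 95% exact intervals that cover counting error only. Dotted lines mark 1.5-fold; the Myh14 point over all cells (1.52) lies past it, and Myh9 in enterocyte-like cells (0.814) is the lowest point.

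The direct partners of the members were followed as lists. Of the 20 genes for microvillus and brush border structure, 0 passed in enterocyte-like cells by edgeR without the block, beside 0.167% of genes. DESeq2 called 7 of them, beside 5.16%. In the edgeR fit 16 of 20 were above 0, beside 47.1% of all genes. The list's median log2 fold change with EIPA was 0.41, beside -0.02 over all genes. With the block 11 of 20 were higher and 0 lower, beside 16.2% of all genes (1257 higher and 781 lower). These were Tmigd1, a brush border adhesion protein (2.66 ± 0.23, adjusted p = 1.14e-06), and the protocadherins that link microvillar tips, Cdhr2 (1.18 ± 0.16, adjusted p = 0.000114) and Cdhr5 (0.89 ± 0.14). The actin bundlers Pls1 (0.97 ± 0.16) and Espn (0.92 ± 0.15), the keratin Krt20 (0.99 ± 0.12), the motors Myo5b (0.70 ± 0.14) and Myo7b (0.44 ± 0.13), and Cobl, Eps8 and Rab11a completed the set. In Goblet/Paneth-like cells Krt20 passed in edgeR without the block (1.16 ± 0.12, adjusted p = 0.0238), beside 0.246% of genes, and 4 of 20 passed with it, beside 4.99%. Its call was kept in 10 of 12 alternatives and lost with called doublets removed (adjusted p = 0.0651) and with each library clustered on its own (1.00). Over all cells 0 of 20 passed by edgeR without the block, 8 with it (beside 5.28% of genes) and 7 by DESeq2 (beside 3.86%), with a median of 0.25. In ISC-like cells the counts were 0, 1 and 0 of 19, beside 0.96% of genes with the block.

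Scin, a calcium-dependent actin-severing protein of the villin and gelsolin family, was the 1 listed partner that edgeR called in enterocyte-like cells without the block. By DESeq2, 1 gene of its family, 7 microvillus genes, 2 ERM rows and 2 myosin II partners passed there, beside 5.16% of genes. The log2 fold change of Scin was 1.99 ± 0.22 (adjusted p = 0.0454, beside 0.167% of genes called). This call was lost in 3 of 12 alternatives, namely stricter limits on cells, each library clustered on its own and resolution 1.6 (adjusted p up to 0.129). By edgeR within single clusters, Scin did not pass in cluster 3 (2.32 ± 0.29, adjusted p = 0.0999) or cluster 7 (1.29 ± 0.22, 0.251). In shallow cluster 8 Scin passed (3.26 ± 0.22, adjusted p = 0.000123), beside 17.9% of genes. In Goblet/Paneth-like cells its relative Capg passed (1.21 ± 0.16, adjusted p = 0.0475), and kept its call in 7 of 12 alternatives. It was -0.02 ± 0.52 with each library clustered on its own. Of this family's 7 genes other than Vil1, 2 of 6 tested passed with the block in enterocyte-like cells (Scin and Capg, beside 16.2% of genes) and 3 of 6 in Goblet/Paneth-like cells (Capg, Gsn and Scin, beside 4.99%). The blocked counts were 3 of 7 over all cells (beside 5.28%) and 1 of 5 in ISC-like cells (Gsn, 1.24 ± 0.32, beside 0.96%).

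The ERM list has 14 genes in 15 feature rows, because Ptp4a1 has 2. By edgeR without the block, 0 rows passed in each of the 4 main populations. By DESeq2, 2 passed in enterocyte-like cells and 2 over all cells, beside 5.16% and 3.86% of genes, and 0 in the other two. With the block, 4 of 15 were higher in enterocyte-like cells, again beside 16.2% of genes. They were Pdzk1 (2.41 ± 0.24) and Slc9a3r1 (0.92 ± 0.13), scaffolds that tie membrane transporters to ezrin, the ERM kinase Stk10 (1.16 ± 0.29) and the RhoA activator Arhgef2 (0.81 ± 0.16). Pdzk1, Slc9a3r1 and Cd44 passed in Goblet/Paneth-like cells, beside 4.99% of genes, and 2 rows passed over all cells, Pdzk1 and Slc9a3r1, beside 5.28%. The list's median in enterocyte-like cells without the block was -0.0032, beside -0.02 over all genes.

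Among 15 tested partners of non-muscle myosin II, 0 passed by edgeR without the block in each of those populations, and DESeq2 called 2, both higher, in enterocyte-like cells, beside 5.16% of genes, and 0 in the others. In enterocyte-like cells with the block, where 1257 genes in all were higher and 781 lower, 4 were higher, namely Actb (0.53 ± 0.13), Actn4 (0.52 ± 0.13) and the light chains Myl12b (0.45 ± 0.13) and Myl6 (0.39 ± 0.13). The 3 that were lower were Anln (-0.75 ± 0.18), Cit (-0.70 ± 0.21) and Actn1 (-0.67 ± 0.13). With the block 2 of 15 were higher over all cells (Myl12b and Myl6, beside 5.28% of genes), 1 in Goblet/Paneth-like cells (Mylk, beside 4.99%) and 0 in ISC-like cells. Anillin and citron kinase are known as parts of the cytokinetic ring. Of the other class I myosins, Myo1c passed with the block in enterocyte-like cells (0.47 ± 0.15, beside 16.2% of genes) and in Goblet/Paneth-like cells (0.43 ± 0.11, beside 4.99%). In both, 0 of 4 passed by edgeR without the block or by DESeq2. Over all cells 0 of 5 passed by edgeR without the block, 1 with it (Myo1c, beside 5.28%) and 1 by DESeq2 (beside 3.86%). Actb, Actg1, Myl6, Myl12b and the keratins have near-identical copies or pseudogenes, so their counts are uncertain.

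The same lists differed between the CRISPR libraries, without a test. In enterocyte-like cells 5 of 20 microvillus genes were past 1.5-fold higher in +Dox and 0 lower, led by Tmigd1 (8.14 to 48.4 CPM, ratio 5.94) and Cdhr2 (45.5 to 114.5 CPM, 2.52). Pdzk1 (6.28 to 35.7 CPM, 5.68), Slc9a3r1 (120.2 to 221.5 CPM, 1.84) and Scin (40.6 to 126.0 CPM, 3.10) were higher, too, as was Arhgef2 (ratio 1.55). Of 15 myosin II partners 5 were past 1.5-fold lower and 0 higher, namely Anln (8.34 to 3.36 CPM, 0.403), Cit (6.95 to 3.14 CPM, 0.451), Actn1 (30.8 to 16.7 CPM, 0.542), Actg1 (ratio 0.625) and Tpm4 (0.659). Over all genes, 6.64% were past 1.5-fold higher and 13.7% lower in these cells. Over all cells 7 of 20 microvillus genes were past it higher, beside 10.7% of all genes, with a median log2 ratio of 0.40, beside -0.04 over all genes.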

How the data were processed

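Organoid cells were captured with 10x 3′ v3.1 chemistry. Raw UMI counts per gene and barcode were deposited by the authors, made with Cell Ranger 6.1.2 on mm10 (GRCm38). No further normalization had been applied, and all columns of values were used. The members and the lists of partner genes were chosen with earlier results of these data known. Members were matched by symbol, and all 8 were found in the RefSeq promoter table.

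Barcodes needed 1000 or more genes and less than 20% mitochondrial counts to be kept (57.0% to 84.4% of barcodes per library). They were clustered with scanpy 1.11.5 and igraph 0.11.9 on 3000 genes, 45 principal components, 20 neighbours and resolution 0.8, leaving out the 86 members and listed genes. A cluster was named when at least 2 markers stood among its 20 leading genes by fold (20 CPM added) and at least 3 markers were above other cells at 10 CPM or more. The class with the most markers also had to lead among the first 10 genes. Clusters led by mitochondrial genes stayed unnamed. So did shallow clusters without a marker among those 10 genes or with several genes at ribosomal RNA loci. Shallow cluster 8, with 1 such gene, kept its name, and cluster 15, with 2, did not. Of 143 markers, 142 were in the features. Scrublet called 8.42% to 16.1% of kept cells as doublets (expected rate 0.1). They stayed in, except in an alternative that left them out.

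For each library and class, counts were added up. EIPA was tested between 2 and 2 libraries with edgeR 4.0.16 (TMM, quasi-likelihood test, two-sided, filterByExpr, Benjamini-Hochberg over all genes tested, threshold 0.05) in R 4.3.3, with DESeq2 1.42.0 as an alternative. A difference of the EIPA effect between classes was fitted with library as a factor. The SE of an edgeR value was taken as its absolute log2 fold change over the square root of the test's F statistic. The study's source data give replicates of the same number as 1 experiment. Libraries with the same number deviated together from their group means, with r across genes of 0.690 over all cells, 0.535 for enterocyte-like, 0.527 for Goblet/Paneth-like, 0.458 for EEC-like, 0.272 for ISC-like and 0.204 for tuft-like cells. The reported fit has no block and so leaves out this pairing, and the blocked value is given where it changed a call. Dox, with 1 library per group, was described by CPM with exact Poisson intervals and without a test. Proliferating cells, the named class with the most cells in each WT library, were left out of the EIPA fits. Ratios of +Dox to -Dox were not made for proliferating, EEC-like or tuft-like cells. On simulated counts with known changes, the enterocyte-like fit recovered 19% of 1.5-fold and 100% of 4-fold changes among 12500 genes. Every member was named, and the 5 with enough counts were given the 3 genes of highest likeness (at least 20 cells per class and library). Listed genes were counted, and named from those called or past 1.5-fold, and the level of the gene targeted by the guide is not reported here.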

Additional observations from a re-analysis of the deposited data

Results flagged for a closer look

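For 8 of the listed partner genes the EIPA effect differed between Goblet/Paneth-like and enterocyte-like cells in edgeR's quasi-likelihood test of the difference itself (log2 scale ± SE, n = 2 libraries per group), while no member passed that test. In all 379 genes (2.82%) passed it, but 26 under stricter limits on cells, 10 without +EIPA replicate 2 and 0 with each library clustered on its own. None of the 8 was called without +EIPA replicate 2 or with each library clustered on its own, and each was called in 3 to 9 of 11 alternatives. Scin had a log2 fold change of 1.99 in enterocyte-like and 0.74 in Goblet/Paneth-like cells, a difference of -1.30 ± 0.16 (adjusted p = 0.000714). The bundler Pls1 stood at 0.99 and 0.20 (difference -0.78 ± 0.16, adjusted p = 0.0153). The microvillar protocadherin Cdhr2 stood at 1.15 and 0.60 (-0.57 ± 0.14, adjusted p = 0.0412), and the ezrin scaffold Slc9a3r1 at 0.92 and 0.45 (-0.46 ± 0.12, adjusted p = 0.0460). Actb stood at 0.53 and 0.03 (-0.49 ± 0.12, adjusted p = 0.0412), with its pseudogenes leaving its counts uncertain.

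The other 3 genes had the lower value in enterocyte-like cells. The cytokinetic scaffold Anln stood at -0.75 there and 0.18 in Goblet/Paneth-like cells (difference 0.95 ± 0.20, adjusted p = 0.0179). The actin crosslinker Actn1 stood at -0.67 and -0.04 (0.63 ± 0.16, adjusted p = 0.0412). Cd44, a membrane partner of ERM proteins, stood at -0.13 and 0.50 (0.65 ± 0.17, adjusted p = 0.0498).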

How the results depend on the processing

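Counts of members called with EIPA moved from 0 as follows. Over all cells they were 1 with DESeq2 (beside 3.86% of genes) and 4 with the replicate block (5.28%). In enterocyte-like cells they were 2 with DESeq2 (beside 5.16% of genes) and 3 with no filter on low counts (7.38%). They were 4 there with the block (16.2%) and 4 within cluster 8 alone (17.9%). Member counts are not given for fits that left out 1 library, since its group then held 1 library. In Goblet/Paneth-like cells the counts were 1 with no filter (beside 1.97% of genes) and 2 with the block (4.99%). The block changed no call of a member in ISC-like, EEC-like or tuft-like cells. The difference between enterocyte-like and ISC-like cells gave 1 member with DESeq2 (beside 0.773% of genes), each library clustered on its own (0.75%) or resolution 1.6 (12.5%). It gave 2 with no filter (1.34%) or with called doublets removed (1.97%). Between Goblet/Paneth-like and enterocyte-like cells the difference gave 1 with DESeq2 (beside 2.07% of genes) and 2 with doublets removed (12.8%). No blocked fit was made for these differences, since library is already a factor in them. With Dox, members past 1.5-fold over all cells went from 2 to 1 under stricter limits on cells, and in enterocyte-like cells from 0 to 2 with TMM factors.

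Myo1a in enterocyte-like over ISC-like cells was 2.44 with doublets removed and 2.45 with each library clustered on its own, where Goblet/Paneth-like over ISC-like was 0.87 (log2). Signs turned for small EIPA values (log2). Myh9 stood at -0.056 over all cells, -0.043 in ISC-like and -0.030 in Goblet/Paneth-like cells by library size. In ISC-like cells Myh9 was -0.012 with no filter and -0.32 at resolution 1.6, Vil1 was -0.17 at resolution 1.6 and -0.12 with each library clustered on its own, and Myo1a was -0.044 with the latter. Leaving out 1 library, Myh9 ran from -0.0063 to 0.059 over all cells, from -0.14 to 0.16 in ISC-like and from -0.015 to 0.14 in Goblet/Paneth-like cells. In ISC-like cells Ezr ran from -0.0085 to 0.17, Myo1a from -0.028 to 0.62 and Vil1 from -0.091 to 0.23. The cause of these shifts was not tested. In enterocyte-like cells no member changed sign under any alternative run.

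Counts of genes called ranged widely over the alternatives: 0 to 839 over all cells, 0 to 106 in ISC-like, 0 to 2038 in enterocyte-like, 0 to 629 in Goblet/Paneth-like, 0 to 224 in EEC-like and 0 to 109 in tuft-like cells. For the differences they were 3 to 1701 (enterocyte-like minus ISC-like), 0 to 512 (Goblet/Paneth-like minus ISC-like) and 0 to 1705 (Goblet/Paneth-like minus enterocyte-like). Calls in enterocyte-like cells were 17 higher and 4 lower with TMM, and 13 and 6 by library size. For the enterocyte-like minus ISC-like difference they were 18 and 6, against 11 and 50. For Goblet/Paneth-like minus enterocyte-like they were 204 and 175, against 388 and 111. With 2 libraries per group, 1.5-fold changes were recovered at 5% to 24% in simulated sums of 1 class or of all cells, and at 57% for the enterocyte-like minus ISC-like difference, so a member that was not called is not shown to be alike between groups.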

Other observations

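Partner genes differed between classes along with the members, given here as means ± SD over 6 libraries and without a test. The class I myosin Myo1d had 39.9 ± 10.5 CPM in ISC-like, 52.5 ± 5.97 CPM in Goblet/Paneth-like and 96.8 ± 12.8 CPM in enterocyte-like cells. Mylk, the kinase of myosin light chains, had 8.12 ± 2.98 CPM in ISC-like and 51.4 ± 7.18 CPM in enterocyte-like cells. The actin crosslinkers ran against each other, with Actn1 at 90.8 ± 9.27 and 25.7 ± 9.02 CPM, and Actn4 at 133 ± 14.5 and 251 ± 43.9 CPM, in ISC-like and enterocyte-like cells. Among the keratins Krt20 was at 6.29 ± 4.28 CPM in ISC-like and 182 ± 56.3 CPM in enterocyte-like cells, whereas Krt18 was at 897 ± 282 and 260 ± 106 CPM.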
